A study of Homo sapiens and Mus musculus with 10 samples.

Results

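The 10 genes described here encode the DNA-binding subunits of the transcription factor NF-kB (NFKB1, RELA, REL, NFKB2 and RELB), proteins that restrain it (NFKBIA, NFKBIE and TNFAIP3) and products of its target genes (BIRC3 and ICAM1). They were taken by gene symbol from the 63140 genes of the human expression table. All 10 were among the 14399 genes that reached 1 TPM in 3 or more of the 6 human libraries and were tested. TPM are transcript abundances corrected for length and scaled to the same total in each library.

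The libraries came from A375, an established human melanoma line, and so the replicates are cultures of 1 line. Cells received LL-37 at 80 µg/mL for 24 h (LL-37, n = 3) or were left without peptide for the same time (Ctrl, n = 3), in biological triplicate per the series text. LL-37 is an antimicrobial peptide released from the precursor cathelicidin. The protocol text names keratinocytes as the RNA source, whereas the sample labels name A375. The mouse skin libraries of the series were not used here.

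NF-kB subunits pair through a shared Rel homology region and are held in the cytoplasm by IkB proteins until a kinase marks those inhibitors for destruction. In the canonical arm, the IKK complex releases dimers of RELA with the processed product of NFKB1; in the noncanonical arm, the kinase NIK (MAP3K14) drives processing of NFKB2, whose product pairs with RELB. Released dimers bind kappaB sites, and several of the genes they switch on, among them NFKBIA, TNFAIP3, NFKB2 and RELB, feed back on the pathway.

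The melanocyte lineage factor SOX10 had 387, 343 and 147 TPM in LL-37 and 287, 266 and 296 TPM in Ctrl, whereas the pigment genes TYR and MLANA were at or near 0 in every library. The keratinocyte genes KRT1, TP63 and DSG3 were listed at 0 in all 6 libraries, and KRT5 reached at most 0.14 TPM. KRT14 and DSC3 of the same list were detected, at 1.15 to 1.98 TPM and 0.92 to 2.35 TPM over the 6 libraries. The summed level of the 9 keratinocyte markers with an entry was 21.6 to 26.8 TPM in LL-37 and 28.9 to 30.2 TPM in Ctrl, most of it KRT10. LL-37 replicate 3 differed from the rest of the libraries: its 50 most abundant genes held 39.8% of all TPM, against 29.8% to 31.1% elsewhere, and 12991 genes reached 1 TPM in it, against 14304 to 14555. Across genes, its deviation from the mean of the libraries had a correlation of -0.50 with log2 transcript length, against 0.13 to 0.32 elsewhere. That mean includes LL-37 replicate 3, so the values elsewhere are not independent of it. The members' values are therefore given with and without this library. TPM keep no record of depth, which is therefore unknown, and counting intervals could not be computed.

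The kappaB consensus was searched in RefSeq promoter windows of the GRCh38.p14 assembly, which run from 250 bases before to 50 bases after a start site, on both strands and counting overlapping matches. Windows were at hand for 8 of the 10 genes, all but RELB and NFKBIE, which were not searched. Of these 8, 6 held at least 1 match, NFKB1, REL, NFKB2, NFKBIA, TNFAIP3 and BIRC3. Among all promoters, 13.3% of 27305 genes and 11.3% of 35116 windows held one. With any base allowed at the first position of the motif, a form chosen after the sequences were seen, RELA and ICAM1 also had a match, as did 35.7% of all genes with a window. The stretches below are shown because NF-kB subunits bind sequences of this form. The consensus lay near a start in 6 genes of the set, those of the subunits NFKB1, REL and NFKB2 included, and RELA and ICAM1 held only the wider form. Each stretch reads 5′ to 3′ on the strand of its gene, and the capitals mark the match.
NFKB1, 49 bases before the start, chr4:102501300-102501329, plus strand: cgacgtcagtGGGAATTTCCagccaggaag
REL, 47 bases before, chr2:60881517-60881546, plus strand: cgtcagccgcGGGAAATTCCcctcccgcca
NFKB2, 107 bases before an inner start, chr10:102394461-102394490, plus strand: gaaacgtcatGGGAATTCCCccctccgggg
NFKB2, 21 bases before a further inner start, chr10:102395674-102395703, plus strand: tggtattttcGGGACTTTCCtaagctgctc
NFKBIA, 81 bases before, chr14:35404811-35404840, minus strand: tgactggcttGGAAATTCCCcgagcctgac
TNFAIP3, 67 bases before, chr6:137867182-137867211, plus strand: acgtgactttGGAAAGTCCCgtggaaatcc
BIRC3, 199 bases before, chr11:102317275-102317304, plus strand: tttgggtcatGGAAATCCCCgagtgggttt
RELA, any first base, 50 bases before, chr11:65663888-65663917, minus strand: cccctgcagtGGAGCATCCTcctttgggga
ICAM1, any first base, 187 bases before, chr19:10270923-10270952, plus strand: tgctttagctTGGAAATTCCggagctgaag
The TNFAIP3 stretch and both NFKB2 stretches lie inside the gene as annotated from its first start, and the others lie upstream of the gene. For NFKBIA, TNFAIP3, BIRC3 and RELA, the match is read on the strand opposite to the one printed. A match is a run of letters and does not show that a factor was bound there.

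The 10 genes were chosen with earlier results of these data known, so their counts beside shares of all genes are a description only. Of the 10 genes, 8 (all but RELA and REL) were higher in LL-37 replicates 1 and 2 than in every Ctrl library, as were 12.2% of all genes tested. The differences without LL-37 replicate 3 were greatest for BIRC3, NFKB2, RELB and NFKB1, between 0.48 and 0.78 on the log2(TPM + 1) scale, and RELA and REL lay within or near the Ctrl range in replicates 1 and 2. In LL-37 replicate 3, 8 of the 10 genes were below every Ctrl library, as were 76.8% of all genes tested, and NFKB1 and BIRC3 alone were above. No member passed an adjusted p of 0.05 over all libraries or without LL-37 replicate 3 (limma, Benjamini-Hochberg adjustment over all genes tested). The same threshold was passed by 0% of genes over all libraries and by 0.112% without LL-37 replicate 3 (0.0419% higher and 0.0699% lower). One filter changes this: when only genes of at least 5 TPM in 3 libraries were tested without LL-37 replicate 3, NFKB1 and NFKB2 rose (limma, Benjamini-Hochberg adjusted p = 0.0350 and 0.0205), 2 of the 7 members that this filter kept, against 0.801% of the 10112 genes tested. In bulk RNA, fewer cells expressing a gene and less of its RNA per cell cannot be told apart.

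**Figure D1:**
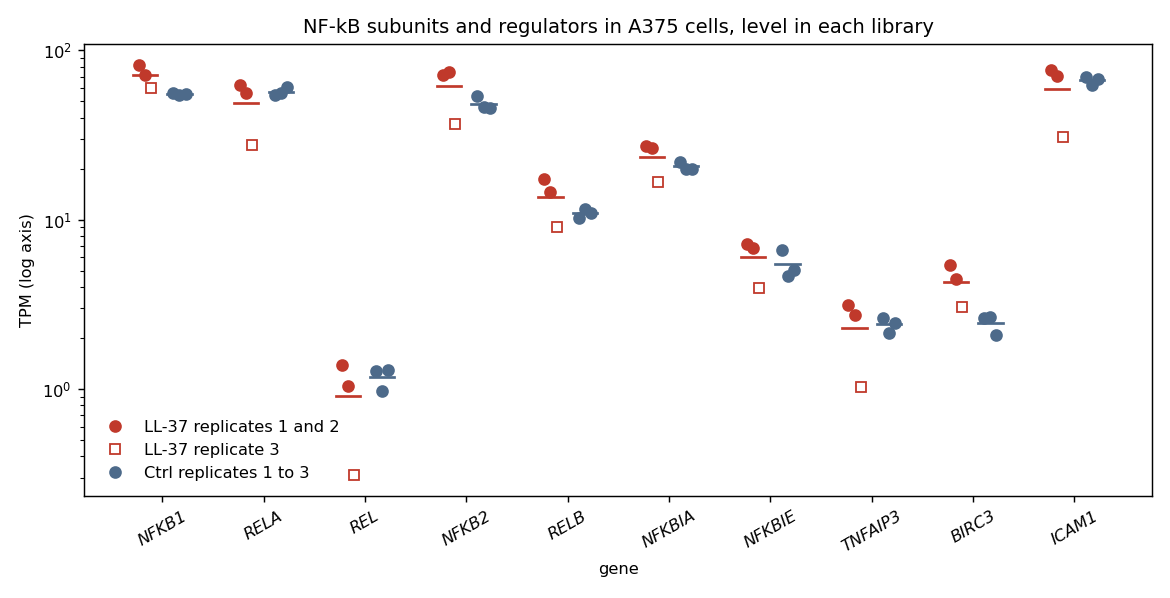
Level of each gene in each library, in TPM on a log axis, with LL-37 in red, left of Ctrl in blue; bars are group means and the open square is LL-37 replicate 3. For NFKB1 and BIRC3 all 3 LL-37 points lie above all 3 Ctrl points, and for the other 8 genes the open square lies below every Ctrl point.

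NFKB1 (ENSG00000109320, chromosome 4, 102501359 to 102617302 of GRCh38) encodes a precursor whose processed form carries the Rel homology region but no activation domain, so that its homodimers can repress. It had 82.4, 71.7 and 60.3 TPM in LL-37 replicates 1 to 3 and 55.7, 54.3 and 55.1 TPM in Ctrl, a mean of 71.5 ± 11.1 TPM in LL-37 and 55.02 ± 0.723 TPM in Ctrl (SD, n = 3 each). All LL-37 libraries were above all Ctrl libraries, and the spread within LL-37 was wider than within Ctrl. The difference on the log2(TPM + 1) scale was 0.36 ± 0.14 (SE; limma, unadjusted p = 0.0428, Benjamini-Hochberg adjusted p = 0.739). Without LL-37 replicate 3 it was 0.48 ± 0.077 (limma, unadjusted p = 0.000235, Benjamini-Hochberg adjusted p = 0.0885).

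RELA (ENSG00000173039, chromosome 11, 65653601 to 65663857) encodes the subunit with the strong activation domain that carries most canonical transcription. It had 62.2, 56.0 and 27.7 TPM in LL-37 and 54.3, 56.2 and 60.6 TPM in Ctrl. LL-37 replicate 1 was just above the Ctrl range, replicate 2 within it and replicate 3 far below it. The difference was -0.31 ± 0.30 over all libraries (limma, Benjamini-Hochberg adjusted p = 0.739) and 0.049 ± 0.080 without LL-37 replicate 3 (limma, Benjamini-Hochberg adjusted p = 0.928). The 95% interval of the second estimate ran from -0.13 to 0.23 on the log2 scale.

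REL (ENSG00000162924, chromosome 2, 60881574 to 60931612), the subunit best known from lymphocytes, was near the lower limit of the measured range, with 1.38, 1.04 and 0.31 TPM in LL-37 and 1.28, 0.97 and 1.30 TPM in Ctrl. Its groups overlapped, and replicate 3 was again the lowest. The difference was -0.23 over all libraries and 0.017 without LL-37 replicate 3. A noncoding transcript, ENSG00000267520, shares 5702 exon bases with REL on the same strand and had 1.76, 1.54 and 0.59 TPM in LL-37 and 1.29, 1.09 and 1.35 TPM in Ctrl, so the split of reads between them is uncertain.

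NFKB2 (ENSG00000077150, chromosome 10, 102394110 to 102402529) encodes the precursor that both acts as an inhibitor and, once processed, partners RELB. It had 71.9, 74.9 and 36.9 TPM in LL-37 and 53.6, 46.0 and 45.6 TPM in Ctrl. Replicates 1 and 2 of LL-37 were above every Ctrl library and replicate 3 was below every one. The difference was 0.27 ± 0.28 over all libraries (limma, Benjamini-Hochberg adjusted p = 0.739). It was 0.59 ± 0.087 without LL-37 replicate 3 (limma, unadjusted p = 0.000116, Benjamini-Hochberg adjusted p = 0.0712), a ratio of means of 1.52.

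RELB (ENSG00000104856, chromosome 19, 45001464 to 45038192), which does not form homodimers readily and depends on the product of NFKB2, followed the same order at a lower level. It had 17.3, 14.6 and 9.04 TPM in LL-37 and 10.2, 11.6 and 11.0 TPM in Ctrl. Replicates 1 and 2 of LL-37 were again above, and replicate 3 below, all Ctrl libraries. The difference was 0.25 over all libraries and 0.50 ± 0.11 without LL-37 replicate 3 (limma, unadjusted p = 0.00158, Benjamini-Hochberg adjusted p = 0.164).

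NFKBIA (ENSG00000100906, chromosome 14, 35401513 to 35404749) encodes IkB alpha, the inhibitor that is degraded first and resynthesised on NF-kB activity. It had 27.1, 26.3 and 16.7 TPM in LL-37 and 22.04, 19.96 and 19.8 TPM in Ctrl. LL-37 replicates 1 and 2 were above the Ctrl range and replicate 3 was below it. The difference was 0.15 over all libraries and 0.36 ± 0.085 without LL-37 replicate 3 (limma, unadjusted p = 0.00273, Benjamini-Hochberg adjusted p = 0.199).

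The other inhibitors of the set were lower in abundance. NFKBIE (ENSG00000146232, chromosome 6, 44258166 to 44265551), which encodes IkB epsilon, had 7.21, 6.76 and 3.97 TPM in LL-37 and 6.62, 4.67 and 5.06 TPM in Ctrl. TNFAIP3 (ENSG00000118503, chromosome 6, 137866349 to 137883312), which encodes the ubiquitin-editing enzyme A20, had 3.13, 2.75 and 1.03 TPM in LL-37 and 2.64, 2.13 and 2.46 TPM in Ctrl. For both genes LL-37 replicates 1 and 2 lay above the highest Ctrl library by a small margin and replicate 3 lay below the lowest. The difference for NFKBIE was 0.091 over all libraries and 0.32 ± 0.15 without LL-37 replicate 3 (limma, Benjamini-Hochberg adjusted p = 0.865 and 0.589). For TNFAIP3 it was -0.11 over all libraries and 0.21 ± 0.14 without LL-37 replicate 3 (limma, Benjamini-Hochberg adjusted p = 0.859 and 0.766). The antisense transcript WAKMAR2 shares 95 exon bases with TNFAIP3 and had 0.41 to 0.82 TPM over the 6 libraries; the libraries were strand-specific per the labels' protocols, but the strand setting of the quantification is not given in the sources used here.

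BIRC3 (ENSG00000023445, chromosome 11, 102317484 to 102339403) encodes cIAP2, a ubiquitin ligase that acts at TNF receptors and, with TRAF2 and TRAF3, keeps NIK low. It had 5.41, 4.47 and 3.05 TPM in LL-37 and 2.64, 2.68 and 2.08 TPM in Ctrl, a mean of 4.31 ± 1.19 TPM in LL-37 and 2.47 ± 0.335 TPM in Ctrl (SD, n = 3 each). All 3 LL-37 libraries were above all Ctrl libraries, replicate 3 by the smallest margin. The difference was 0.59 ± 0.22 over all libraries (limma, unadjusted p = 0.0342, Benjamini-Hochberg adjusted p = 0.739), the greatest among the 10 genes. Without LL-37 replicate 3 it was 0.78 ± 0.15 (limma, unadjusted p = 0.000729, Benjamini-Hochberg adjusted p = 0.112), and the ratio of mean TPM was 2.00, against 1.75 over all libraries.

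ICAM1 (ENSG00000090339, chromosome 19, 10271120 to 10286615) encodes an adhesion molecule that leukocyte integrins bind. It had 76.3, 70.2 and 30.6 TPM in LL-37 and 70.0, 62.1 and 67.5 TPM in Ctrl. Replicate 1 and replicate 2 of LL-37 were only just above the highest Ctrl library, and replicate 3 was far below the lowest. The difference was -0.27 ± 0.34 over all libraries and 0.14 ± 0.077 without LL-37 replicate 3 (limma, Benjamini-Hochberg adjusted p = 0.745 and 0.690). The antisense transcript ICAM4-AS1 shares 815 exon bases with ICAM1 and reached at most 0.46 TPM.

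**Figure D2:**
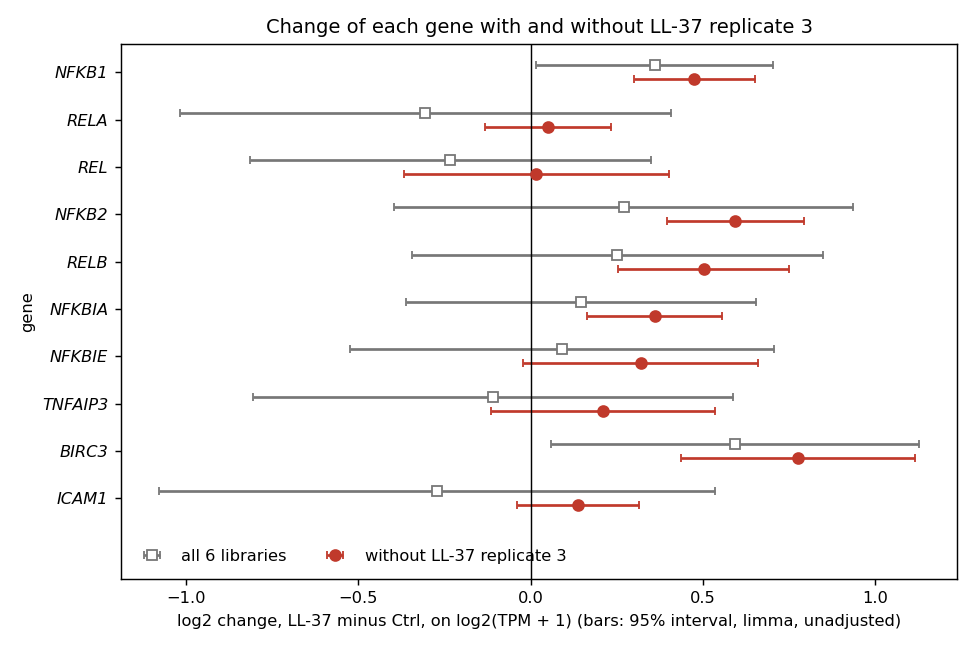
Log2 change of each gene, LL-37 minus Ctrl on log2(TPM + 1), for all 6 libraries (open squares) and without LL-37 replicate 3 (red points); bars are 95% intervals from limma, not adjusted over genes. The intervals of NFKB1, NFKB2, RELB, NFKBIA and BIRC3 lie above 0 without LL-37 replicate 3, and those of NFKB1 and BIRC3 also do over all libraries.

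Over all libraries, NFKB1 and BIRC3 were the 2 of 10 genes whose groups were apart, both higher in LL-37, as held in that direction for 2.13% of all genes tested. No member was apart and lower, against 10.3% of genes. The same 2 had an unadjusted p under 0.05, a limit passed by 0.66% of genes that were higher and by 1.86% that were lower. Both missed that limit with a replicate block (limma, unadjusted p = 0.0927 for NFKB1 and 0.0556 for BIRC3) and in each fit that left out a single library, LL-37 replicate 3 excepted. NFKB1 also missed it with mitochondrially encoded genes taken out or with no intensity trend (limma, unadjusted p = 0.0527 and 0.0633). BIRC3 missed it with no filter (limma, unadjusted p = 0.0507). When LL-37 replicate 3 was left out, 8 of the 10 genes were apart and higher (all but RELA and REL), against 12.2% of genes, and none was apart and lower, against 12.9%. An unadjusted p under 0.05 was then reached by 5 of the 10, NFKB1, NFKB2, RELB, NFKBIA and BIRC3, all higher, against 4.89% of genes in that direction and 4.12% in the other. The median difference of the 10 genes was 0.12 over all libraries and 0.34 without LL-37 replicate 3, and that of all genes tested was -0.20 and -0.0042. LL-37 was higher than Ctrl for 6 of 10 members over all libraries and for 10 of 10 without LL-37 replicate 3, against 19.7% and 48.6% of all genes. Both the choice of the members and the omission of LL-37 replicate 3 drew on earlier results of these data. The counts beside these shares are therefore a description and not a test.

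The scale of the libraries bears on these counts. In TPM, the median difference of all genes was -0.0042 without LL-37 replicate 3 and -0.20 over all libraries. Median-of-ratios scaling moves the median over all libraries to 0.0070. With it, the groups did not overlap for 6 members, NFKB1, NFKB2, RELB, NFKBIA, NFKBIE and BIRC3, all higher in LL-37. The same held for 6.06% of genes that were higher and 6.55% that were lower. On that scale the differences over all libraries were 0.61 for NFKB1, 0.52 for NFKB2, 0.48 for RELB, 0.38 for NFKBIA and 0.78 for BIRC3. Those of RELA and ICAM1 were -0.061 and -0.027. No member passed the adjusted threshold on that scale (limma with Benjamini-Hochberg adjustment, smallest adjusted p of a member 0.490). With quantile normalization 5 members were apart and higher, NFKB1, RELB, NFKBIA, NFKBIE and BIRC3, against 5.85% of genes that were higher and 7.1% that were lower, and the smallest adjusted p of a member was 0.466 (limma with Benjamini-Hochberg adjustment).

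A ratio of members within 1 library does not depend on its scale, and RELA was taken as the common denominator after the values were seen. RELA was flat in LL-37 replicates 1 and 2 and among the members that dropped most in replicate 3, so these ratios repeat that choice and are a description only. NFKB1 over RELA was 1.33, 1.28 and 2.18 in LL-37 and 1.03, 0.966 and 0.909 in Ctrl. NFKB2 over RELA was 1.16, 1.34 and 1.33 in LL-37 and 0.987, 0.819 and 0.752 in Ctrl. In both cases every LL-37 library, replicate 3 included, was above every Ctrl library. NFKBIA over RELA was 0.436, 0.470 and 0.604 in LL-37 and 0.406, 0.355 and 0.327 in Ctrl, and BIRC3 over RELA was 0.0870, 0.0798 and 0.110 in LL-37 and 0.0486, 0.0477 and 0.0343 in Ctrl. These also did not overlap. ICAM1 over RELA was 1.23, 1.25 and 1.10 in LL-37 and 1.29, 1.11 and 1.11 in Ctrl and overlapped. Of the 9 ratios of a member to RELA, 5 (NFKB1, NFKB2, RELB, NFKBIA and BIRC3) were higher in LL-37 without overlap and 0 were lower, against 4.91% higher and 5.4% lower among all genes tested that were detected in every library.

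The canonical and noncanonical subunits were then set against each other. The mean log2(TPM + 1) of NFKB2 and RELB minus that of NFKB1 and RELA was -0.99, -0.90 and -1.10 in LL-37 and -1.18, -1.21 and -1.32 in Ctrl. The groups did not overlap, and the difference of their means was 0.23 over all libraries and 0.29 without LL-37 replicate 3. The pairs that make up this score did not behave alike. RELB over RELA, on the log2 scale, was -1.85, -1.94 and -1.62 in LL-37 and -2.41, -2.28 and -2.46 in Ctrl, with no overlap. NFKB2 over NFKB1 was -0.20, 0.063 and -0.71 in LL-37 and -0.055, -0.24 and -0.27 in Ctrl, so that LL-37 spanned the whole Ctrl range. RELB over NFKB1 was -2.25, -2.30 and -2.74 in LL-37 and -2.44, -2.23 and -2.33 in Ctrl and overlapped as well. The arms were thus apart in the pair that holds RELA and overlapped in the pair that holds NFKB1. Within the noncanonical arm, RELB over NFKB2 differed between the groups by -0.0050 over all libraries, on the log2 scale, and by -0.065 without LL-37 replicate 3.

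**Figure D3:**
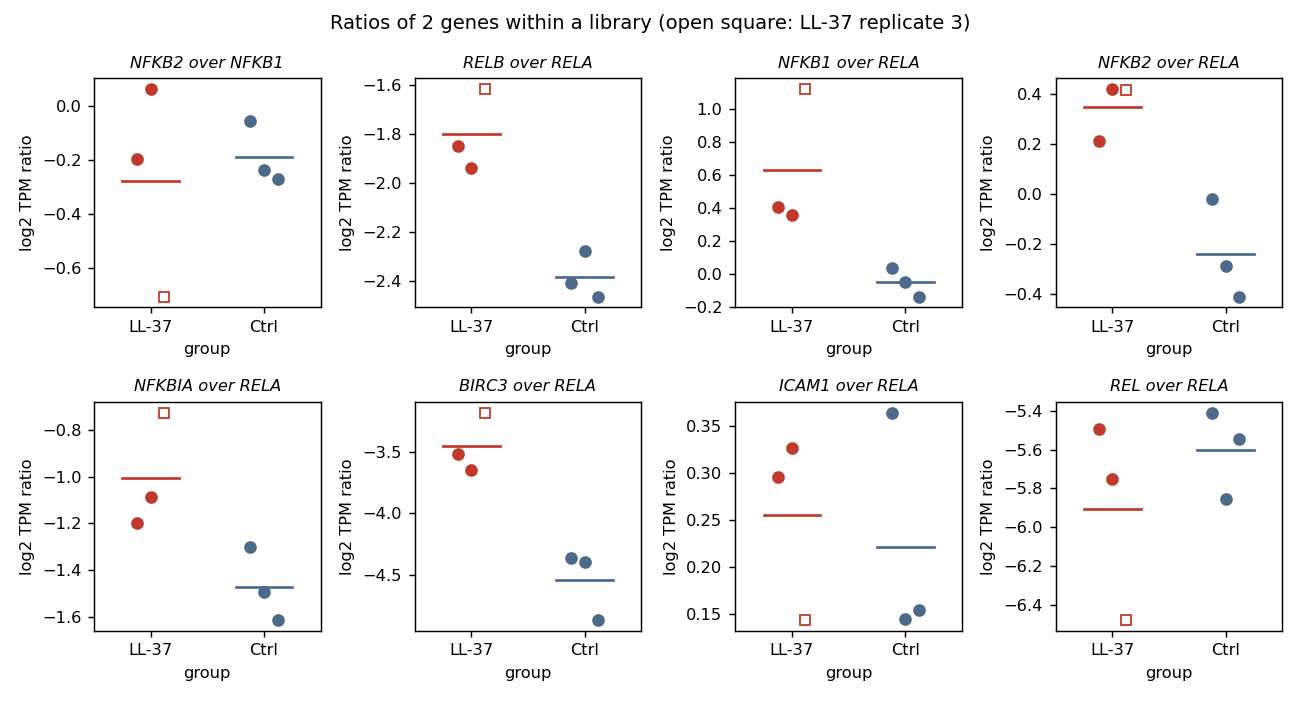
Log2 of the TPM ratio of gene pairs within each library, LL-37 left of Ctrl in each panel; bars are group means and the open square is LL-37 replicate 3, and each panel has its own vertical range. All LL-37 points lie above all Ctrl points for RELB, NFKB1, NFKB2, NFKBIA and BIRC3 over RELA, whereas the groups overlap for NFKB2 over NFKB1, ICAM1 over RELA and REL over RELA.

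Since TPM are per length, the genes could be ordered by level. In LL-37 the group means ran from NFKB1 (71.5 TPM) through NFKB2 (61.3), ICAM1 (59.1) and RELA (48.6) to NFKBIA (23.4), RELB (13.6), NFKBIE (5.98), BIRC3 (4.31), TNFAIP3 (2.30) and REL (0.91). The ranges of all neighbours in this order overlapped across the LL-37 libraries, except RELA with NFKBIA and RELB with NFKBIE. Compared within each library, the order from ICAM1 downward held in every LL-37 library. Only NFKB1 with NFKB2 and NFKB2 with ICAM1 changed places between libraries. In Ctrl the order was ICAM1 (66.5 TPM), RELA (57.1), NFKB1 (55.02), NFKB2 (48.4), NFKBIA (20.6), RELB (10.9), NFKBIE (5.45), BIRC3 (2.47), TNFAIP3 (2.41) and REL (1.18). Neighbours whose Ctrl libraries overlapped were RELA with NFKB1 and BIRC3 with TNFAIP3. The subunit messages other than REL and RELB were therefore of similar abundance in Ctrl, and NFKB1 and NFKB2 stood first by their means in LL-37.

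The drop in LL-37 replicate 3 differed among the members. Relative to the mean of LL-37 replicates 1 and 2, replicate 3 was lower by a median of -0.75 on the log2(TPM + 1) scale over the 10 genes and of -0.59 over all genes tested. On this scale the drop was least for NFKB1, at -0.35, and BIRC3, at -0.55, and greatest for ICAM1, at -1.23, and RELA, at -1.06. The scale understates the drop of low genes. BIRC3 is one of them, at 5.41, 4.47 and 3.05 TPM in LL-37 replicates 1 to 3, so its place next to NFKB1 depends on the scale. The TPM ratio of REL over RELA was 0.0222, 0.0186 and 0.0112 in LL-37 replicates 1 to 3. That of TNFAIP3 over RELA was 0.0504, 0.0491 and 0.0372. In TPM, both genes thus fell more than RELA in replicate 3. The longest annotated transcripts of the members ran from 1558 bases for NFKBIA to 11255 bases for REL, with 3183 bases for RELA, 3252 bases for ICAM1, 4085 bases for NFKB1 and 5197 bases for BIRC3. NFKBIA was at -0.64, REL at -0.75 and TNFAIP3, of 4735 bases, at -0.96. With each library's trend over transcript length removed, an alternative chosen after seeing the data, the groups did not overlap for 5 members, NFKB1, NFKB2, RELB, TNFAIP3 and BIRC3, all higher in LL-37, against 5.7% of genes that were higher and 7.03% that were lower. The difference over all libraries was then 0.61 for NFKB1, 0.48 for NFKB2, 0.37 for RELB, 0.88 for BIRC3 and -0.11 for RELA. What set LL-37 replicate 3 apart was not tested.

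**Figure D4:**
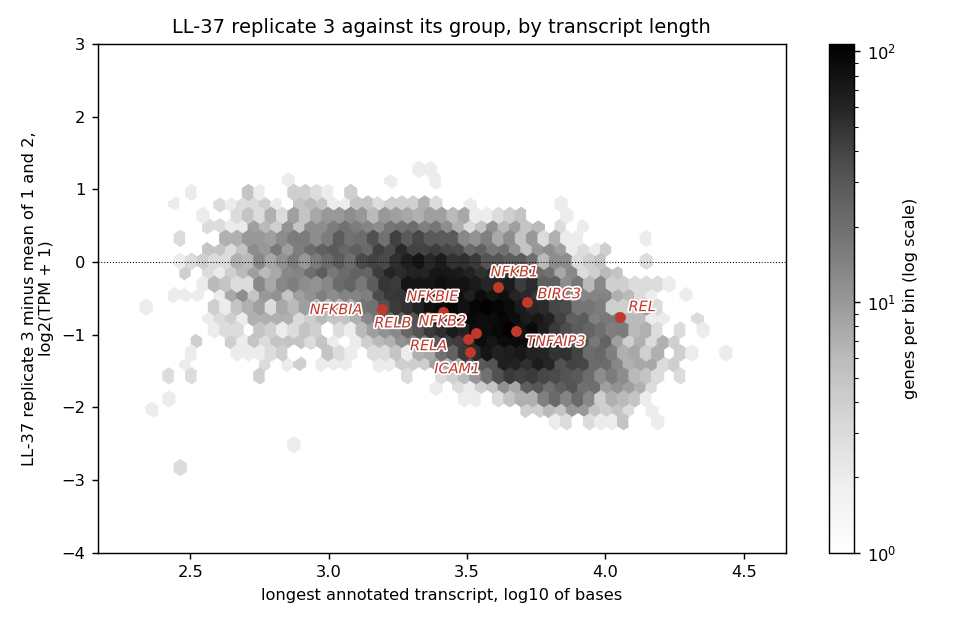
Level in LL-37 replicate 3 minus the mean of LL-37 replicates 1 and 2, on log2(TPM + 1), against the longest annotated transcript (log10 of bases); grey bins count all tested genes with a length and red points are the 10 members. Long transcripts lie lower, and the members run from NFKB1 (-0.35) to ICAM1 (-1.23); 4 genes fall outside the drawn range.

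The rest of the pathway was read from lists that were not picked for how their genes moved but were written with earlier results of these data known. None of their genes passed the adjusted threshold over all libraries (limma). Of 15 ligands, 4 were measured and 10 stayed below 1 TPM in every library; TNF reached at most 0.04 TPM. IL1A, an alarmin that signals through the IL-1 receptor, had 28.7, 29.7 and 31.6 TPM in LL-37 and 20.9, 21.7 and 20.1 TPM in Ctrl. Its groups were well apart, replicate 3 being the highest, with a difference of 0.50 over all libraries and 0.46 without LL-37 replicate 3 (limma, Benjamini-Hochberg adjusted p = 0.739 and 0.0921). Of the 4 ligands measured, 1 was apart and higher over all libraries and 1 apart and lower, against 2.13% and 10.3% of all genes.

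Of 28 receptors and adaptors, 19 were measured, and without LL-37 replicate 3 the groups were apart for 5 that were higher and 2 that were lower in LL-37, against 12.2% and 12.9% of all genes. TNFRSF12A, the TWEAK receptor, had 213, 201 and 222 TPM in LL-37 and 166, 184 and 189 TPM in Ctrl. IL1RAP, the accessory chain of the IL-1 receptor, had 6.12, 6.54 and 2.93 TPM in LL-37 and 7.78, 6.86 and 7.34 TPM in Ctrl. TNFRSF12A was thus higher and IL1RAP lower in every LL-37 library than in any Ctrl library. Over all libraries 1 of the 19 was apart and higher and 2 were apart and lower, against 2.13% and 10.3% of all genes. The differences of TNFRSF12A and IL1RAP were 0.24 and -0.48 over the 6 libraries, and 0.21 and -0.18 when LL-37 replicate 3 was dropped. The median difference of the list was -0.22 over all libraries and 0.00057 without LL-37 replicate 3, close to that of all genes.

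All 20 genes upstream in the IKK arm were measured, of which 2 were apart and higher and 2 apart and lower without LL-37 replicate 3, no more than the 12.2% and 12.9% among all genes. RNF31, the catalytic subunit of the linear ubiquitin ligase, had 25.2, 23.0 and 13.6 TPM in LL-37 and 29.4, 27.2 and 30.1 TPM in Ctrl. MAP3K7, the kinase TAK1 that activates IKK, had 21.1, 19.9 and 11.7 TPM in LL-37 and 23.7, 21.3 and 23.4 TPM in Ctrl. Both were lower in all LL-37 libraries than in any Ctrl library. Over all libraries this held for 2 of the 20 genes, close to the 10.3% among all genes, and 0 were apart and higher, against 2.13%. Neither RNF31 nor MAP3K7 passed the threshold. The differences were -0.51 for RNF31 and -0.40 for MAP3K7 over the 6 libraries. They were -0.25 and -0.15 when LL-37 replicate 3 was dropped (limma, Benjamini-Hochberg adjusted p = 0.385 and 0.723 without it). In the NIK arm 7 of 8 genes were measured. With or without LL-37 replicate 3, 0 were apart and higher and 1, SKP1, was apart and lower. The shares among all genes were 12.2% higher and 12.9% lower without LL-37 replicate 3, and 2.13% and 10.3% over all libraries. SKP1 is a component of the ubiquitin ligase that recognises the phosphorylated NFKB2 precursor and IkB proteins. SKP1 had 196, 190 and 200 TPM in LL-37 and 225, 201 and 214 TPM in Ctrl. NIK itself (MAP3K14) had 5.29, 4.59 and 2.76 TPM in LL-37 and 4.45, 4.28 and 4.64 TPM in Ctrl and overlapped.

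Of 24 other inhibitors, 21 were measured, 6 were apart and higher and 1 was apart and lower without LL-37 replicate 3, against 12.2% and 12.9% of all genes. PDLIM2, a ubiquitin ligase for nuclear RELA, had 51.6, 49.5 and 58.0 TPM in LL-37 and 38.0, 49.4 and 45.8 TPM in Ctrl. It was the only one of them apart over all libraries as well, by a margin in replicate 2 that was smaller than the spread of Ctrl. Among all genes, 2.13% were apart and higher over all libraries and 10.3% apart and lower. None of the 21 had an unadjusted p under 0.05 in either fit.

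Among 64 other target genes, 43 were measured. With LL-37 replicate 3 left out, 19 were apart and higher and 5 apart and lower, and an unadjusted p under 0.05 was reached by 15 that were higher and 2 that were lower. The shares among all genes were 12.2% and 12.9% for the groups being apart, and 4.89% and 4.12% for the p. The median difference was 0.12 without LL-37 replicate 3 and -0.045 over all libraries. C3, the central complement component, rose without LL-37 replicate 3 (0.97 ± 0.11; limma, Benjamini-Hochberg adjusted p = 0.0211), as the only gene of the pathway lists past the threshold, which 0.0419% of all genes passed in that direction. It had 43.4, 53.6 and 28.7 TPM in LL-37 and 23.4, 22.8 and 26.4 TPM in Ctrl, with no overlap, and over all libraries its difference was 0.73 (limma, Benjamini-Hochberg adjusted p = 0.739). LCN2, an iron-scavenging secreted protein, had 6.97, 7.35 and 5.75 TPM in LL-37 and 2.47, 3.21 and 3.84 TPM in Ctrl.

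The neutrophil chemokines CXCL3 and CXCL8 were also apart over all libraries, and replicate 3 had their highest level. Of the 43 target genes measured, 10 were apart and higher over all libraries and 4 apart and lower, against 2.13% and 10.3% of all genes. CXCL3 had 6.88, 7.01 and 7.02 TPM in LL-37 and 4.12, 3.60 and 4.17 TPM in Ctrl. CXCL8 had 24.7, 24.9 and 34.97 TPM in LL-37 and 19.8, 18.5 and 14.2 TPM in Ctrl. Over all libraries the differences were 0.69 for CXCL3, 0.65 for CXCL8 and 0.89 for LCN2. Without LL-37 replicate 3 they were 0.68, 0.49 and 0.98 in the same order (limma, Benjamini-Hochberg adjusted p = 0.0921, 0.277 and 0.0902).

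**Figure D5:**
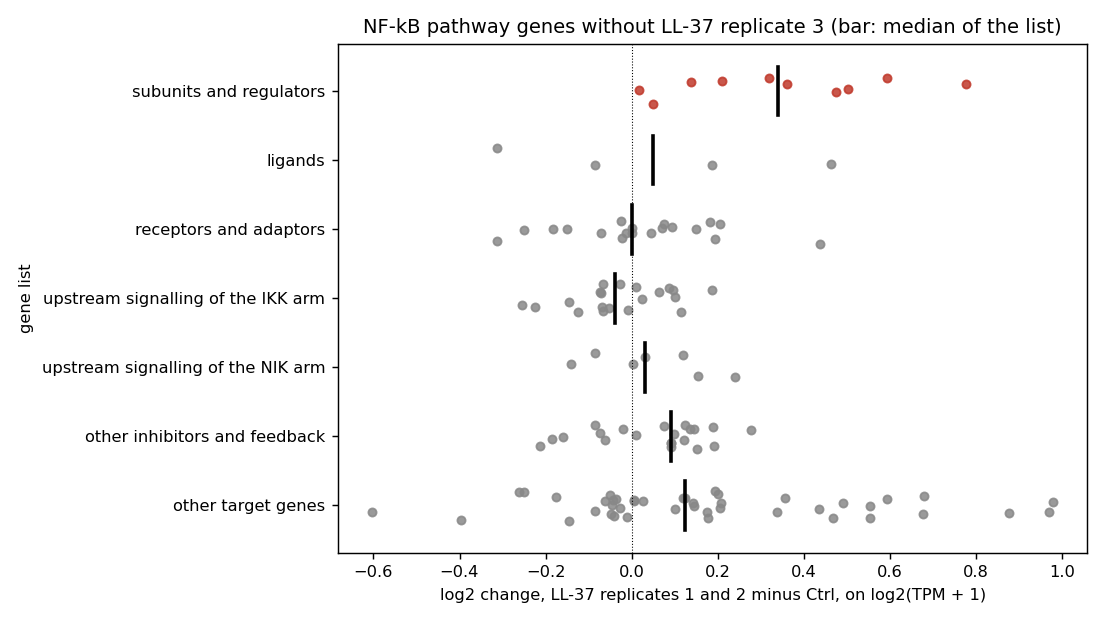
Log2 change on log2(TPM + 1), LL-37 replicates 1 and 2 minus Ctrl, of each measured gene of the NF-kB subunits and regulators (red) and of the pathway lists (grey), with a bar at each list's median. The 10 members all lie above 0 with a median of 0.34, and the other lists straddle 0 with medians between -0.040 and 0.12.

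Some abundant transcripts outside the pathway moved with replicate 3 or with the groups. The 13 mitochondrially encoded genes summed to 17578 TPM in LL-37 replicate 3 and up to 42527 TPM in the other LL-37 libraries, against 33496 to 36320 TPM in Ctrl. With LL-37 replicate 3 left out, 11 of the 13 were apart and higher and 1, MT-CO3, apart and lower, against 12.2% and 12.9% of all genes. MT-ND6 rose without LL-37 replicate 3 (2.36 ± 0.13; limma, Benjamini-Hochberg adjusted p = 0.000664), with 144, 138 and 55.7 TPM in LL-37 and 30.9, 28.1 and 21.6 TPM in Ctrl; over all libraries its difference was 1.92 (limma, Benjamini-Hochberg adjusted p = 0.739). With these genes left out of the totals, the differences over all libraries were 0.36 for NFKB1 and 0.60 for BIRC3, and 1 member in place of 2 had an unadjusted p under 0.05. Their part in the values of the NF-kB genes was not tested otherwise.

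Among 9678 other genes with a mean of at least 5 TPM, those most like the mean profile of NFKB2 and RELB over the 6 libraries, by the root mean square difference of centred log2(TPM + 1), were TRIM47 (0.0510), KIF2C (0.0852), SLC25A45 (0.0886), SOD2 (0.0893) and the pseudogene RPL13AP20 (0.0909). NFKB2 and RELB each lay 0.0811 from their own mean. SOD2, which encodes the mitochondrial manganese superoxide dismutase, is also on the target list and had 55.6, 53.8 and 31.7 TPM in LL-37 and 41.2, 36.8 and 42.7 TPM in Ctrl. It showed the order of NFKB2 and RELB, with LL-37 replicates 1 and 2 above and replicate 3 below every Ctrl library. The mean profile of NFKB1 and RELA was most like PPP1R15A (0.0256), ZNF444 (0.0332), MAP2K2 (0.0375), POLD1 (0.0398) and SLC3A2 (0.0412). NFKB1 and RELA themselves each lay 0.207 from that mean, farther than any of these genes, so that the mean of the canonical subunits described neither of them.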

How the data were processed

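Poly(A)-selected, strand-specific libraries were made from total RNA, per the labels' protocols. The authors deposited TPM per human gene; the build GRCh38 is named in the submitters' processing notes, and no aligner or quantification tool is given in the sources used here. Symbols from a gene name table were at hand for 62541 of the 63140 Ensembl identifiers. Values were analysed as log2(TPM + 1), which understates changes of low genes, with limma 3.58.1 in R 4.3.3 (intensity trend, two-sided, Benjamini-Hochberg adjustment over all genes tested, threshold 0.05), after a filter of 1 TPM in 3 libraries, over the 6 libraries and again without LL-37 replicate 3. Code was tested on simulated data. Gene positions and promoter sequences came from RefSeq. The longest transcript, known for 96.4% of tested genes, and the shared exon bases came from a GENCODE annotation of GRCh38. The members and lists were chosen with earlier results of these data known. Text names all members, genes of other lists past the threshold and up to 4 per list with the largest change, at least 5 TPM and no overlap. Further genes (markers, TNF, MAP3K14) were named after their values were seen. As alternatives, the pseudocount was set to 0.1 or 5, the filter dropped or raised to 5 TPM, and libraries scaled by median of ratios or by quantiles; the intensity trend was dropped, a replicate block added, mitochondrially encoded genes taken out of the TPM, each library omitted and, chosen after seeing the data, the length trend removed.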

Additional observations from a re-analysis of the deposited data

How the results depend on the processing

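Over all libraries, 0 genes passed the threshold under each alternative that kept LL-37 replicate 3, and 0 to 16 did when single libraries were left out. Without LL-37 replicate 3, 16 genes passed, against 7 with no filter, 81 with a filter of 5 TPM, 9 with median-of-ratios scaling, 9 with quantile normalization and 3 with no intensity trend. With the 5 TPM filter, which kept 7 members, 2 passed, NFKB1 and NFKB2, against 0.801% of genes (limma, adjusted p = 0.0350 and 0.0205; 0.0350 to 0.260 and 0.0205 to 0.259 over the alternatives). The deviations of same-numbered libraries from their group means correlated with r = 0.0912, -0.196 and -0.168. LL-37 replicate 3 weighs heavily on these deviations, so they cannot decide whether the numbers pair the libraries. With the replicate block 0 genes passed over all libraries and 2 without LL-37 replicate 3, and 0 members in either. Members without overlap, all higher in LL-37, numbered 2 over all libraries, against 2.13% of all genes in that direction. They numbered 6 with median-of-ratios scaling, 5 with quantile normalization and 5 with the length trend removed, against 6.06%, 5.85% and 5.7%. With single libraries left out they numbered 2 to 8. Genes apart and higher then numbered 441 to 1743, and those apart and lower 1743 to 3474, of 14134 to 14303 tested. The noncanonical minus canonical difference was 0.19 to 0.29 with single libraries left out. With single libraries left out, the log2 change ran from -0.52 to 0.049 for RELA, -0.41 to 0.017 for REL, -0.043 to 0.32 for NFKBIE, -0.30 to 0.21 for TNFAIP3 and -0.51 to 0.14 for ICAM1, and from 0.25 to 0.48 for NFKB1, 0.094 to 0.59 for NFKB2, 0.070 to 0.50 for RELB, 0.029 to 0.36 for NFKBIA and 0.45 to 0.78 for BIRC3, the highest of these without LL-37 replicate 3; it turned without LL-37 replicate 3 for RELA, REL, TNFAIP3 and ICAM1, and for NFKBIE without LL-37 replicate 1 or 2 (-0.0022). It also turned with the length trend removed for REL (0.15) and TNFAIP3 (0.16), and for TNFAIP3 with median-of-ratios scaling (0.035) and quantile normalization (0.046). The causes were not tested. In the other alternatives run the members' differences kept their direction. Low genes such as REL, TNFAIP3 and BIRC3 are limited by unknown depth.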
